A study of Mus musculus with 7 samples.

Results

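Antioxidant enzymes were represented on the array by 10 genes with 21 probe sets in all, Sod1, Sod2, Cat, Gpx1, Gpx4, Prdx1, Nqo1, Hmox1, Gclc and Mgst3, out of 22626 probe sets that are not array controls. The members were all probe sets that the array annotation gives to one of these genes, without a choice by signal. The signals came from 7 whole FVB mouse embryos at E10.5, each hybridized to its own Affymetrix 430A 2.0 array: 2 diabetes-exposed embryos with a neural tube defect (NTD), 3 diabetes-exposed embryos without NTD and 2 control embryos. The dam of the exposed embryos had been made diabetic with streptozotocin, which destroys insulin-producing cells, and the dam of the controls was not treated. FVB is an inbred strain, and all groups shared it. All exposed embryos were littermates from 1 diabetic dam and both controls were littermates from 1 other dam. Exposure and litter therefore cannot be told apart, and each p-value measures only the spread within litters.

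Respiration and oxidases produce superoxide, which superoxide dismutases convert to hydrogen peroxide. Catalase, glutathione peroxidases and peroxiredoxins then reduce the peroxide, the peroxidases at the expense of thiols that are kept reduced with NADPH. Many of these genes can be induced by the transcription factor Nrf2 (Nfe2l2), which binds antioxidant response elements when oxidants release it from its inhibitor Keap1, and oxidative stress has long been studied in embryos of diabetic dams.

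Antioxidant response elements share the core letters TGACNNNGC, which were searched on both strands in the RefSeq promoters of build GRCm38.p6, from 250 bases before to 50 bases after each gene start. The core was present in 12.4% of all 32851 promoters. For the antioxidant genes 11 promoters of 8 genes were found, 4 of them for Gpx4, while Hmox1 and Gclc were not matched. The core occurred in the promoters of Sod1 and Prdx1, each with 1 match, on the minus strand, starting 56 bases before the start of Sod1 and 133 bases before that of Prdx1. These sequences are shown with the core in capitals, together with that of Mgst3, the member with the lowest p between exposed and control embryos, in which the letters did not occur in this window. The promoters lie at chr1:167393792-167394091 on the minus strand for Mgst3, at chr16:90220512-90220811 on the plus strand for Sod1 and at chr4:116685349-116685648 on the plus strand for Prdx1.
Mgst3: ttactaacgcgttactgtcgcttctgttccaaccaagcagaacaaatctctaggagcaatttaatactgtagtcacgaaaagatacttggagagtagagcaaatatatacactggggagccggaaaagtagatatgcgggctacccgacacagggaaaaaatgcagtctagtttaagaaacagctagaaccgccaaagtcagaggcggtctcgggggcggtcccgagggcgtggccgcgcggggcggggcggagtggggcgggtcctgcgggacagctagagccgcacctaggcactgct
Sod1: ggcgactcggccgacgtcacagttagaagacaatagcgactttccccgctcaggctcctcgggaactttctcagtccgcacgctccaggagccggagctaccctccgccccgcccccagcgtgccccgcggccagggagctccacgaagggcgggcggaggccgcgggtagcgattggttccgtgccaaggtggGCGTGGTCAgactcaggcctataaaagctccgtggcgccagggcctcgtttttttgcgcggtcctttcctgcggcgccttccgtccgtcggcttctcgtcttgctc
Prdx1: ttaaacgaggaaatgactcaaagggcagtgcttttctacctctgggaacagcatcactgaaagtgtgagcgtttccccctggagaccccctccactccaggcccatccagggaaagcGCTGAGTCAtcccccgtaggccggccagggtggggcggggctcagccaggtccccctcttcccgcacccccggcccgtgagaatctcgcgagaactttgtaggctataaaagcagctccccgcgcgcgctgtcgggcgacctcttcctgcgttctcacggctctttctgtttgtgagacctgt
The letters TATAAA occurred in 13.6% of all promoters and in those of Sod1, Prdx1 and Nqo1, starting 37, 29 and 29 bases before the start. The letters GGGCGG, a GC box, occurred in 35.7% of all promoters and in 10 of the 11 of the antioxidant genes. Some of the 4 Gpx4 windows overlap, so the 11 are not all separate. The median content of G and C was 62.0% in the promoters of the antioxidant genes and 52.7% in all promoters. The letters ACGTG, the core of hypoxia response elements, occurred in 19.6% of all promoters and, among the antioxidant genes, in that of Gpx1. A match is a description of the sequence and not a binding site.

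Signals are linear MAS5 intensities, scaled by the authors so that the mean without 2% of the probe sets at each end was 500.2 on every array, with medians of 206 to 218. The limma test on log2 signals took in the 14554 probe sets that reached the 40th percentile (131 to 146) on at least 2 arrays. Between exposed and control embryos 25 of them were called at an adjusted p under 0.05, 16 higher and 9 lower. The embryos differed in other transcripts. Of 15 genes that mark red blood cells 12 had a probe set of their own, whose summed signal was 71610 to 89725 in exposed embryos and 56780 to 59386 in controls, and Hba-a1 lay below the 40th percentile on all arrays. The signals of 11 genes of neurons summed to 8972 to 11190 in exposed embryos and 13037 to 13217 in controls. Markers of yolk sac endoderm and liver summed to 25437 in exposed embryo 1 without NTD, to 1618 to 2825 in the other exposed embryos, and to 3505 to 4191 in controls. Xist, made from the inactive X chromosome, gave signals of 7533 and 256 in the exposed embryos with NTD and of 6074 to 6840 in the 3 without NTD, against 181 and 165 in controls, so that 4 exposed embryos and no control were high. Eif2s3y, of the Y chromosome, had 0.549 to 2.76 in these 4 embryos, 245 in exposed embryo 2 with NTD, and 227 and 203 in controls. The labels do not give the sex. By these signals 4 exposed embryos were female and the other exposed embryo and both controls male, so that sex was not balanced between the groups. In whole embryos, fewer cells of a type and less RNA per cell cannot be told apart.

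Few of the antioxidant probe sets differed between exposed and control embryos. Of the 21 probe sets 19 were tested, with at least 1 for each gene. None was called by limma, where 0.172% of all tested probe sets were called. At an unadjusted p under 0.05 only Mgst3 passed, 5.26% of the tested members against 16.2% of all tested probe sets. The methods' t-test passed 2 of 19 members unadjusted, Gpx1 and Mgst3, against 2651 of all 14554 tested probe sets. After Benjamini-Hochberg adjustment it passed 0 members and 0 of all tested probe sets. All exposed embryos lay above both controls for 1 member, again Mgst3, or 5.26%, against 11.4% of all tested, and all lay below them for 0 members, against 13.4%. The median size of the log2 fold change was 0.09 over the 19 members, 0.19 over the brightest probe set of each of the 10 genes and 0.19 over all tested probe sets, so that per gene the sizes were like those of the array. The size exceeded 1.5-fold in 2 of 19 members, Nqo1 and Mgst3, or 10.5%, against 7.89% of all tested probe sets. Of the members, 11 had a positive and 8 a negative log2 fold change. For 13 of 19 members, or 68.4%, the whole 95% interval stayed within 1.5-fold in either direction, against 46.3% of all tested probe sets. These included every tested probe set of Sod2, Cat, Gpx1, Gpx4 and Gclc, 1 of 2 for Sod1 and 3 of 5 for Prdx1.

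**Figure D1:**
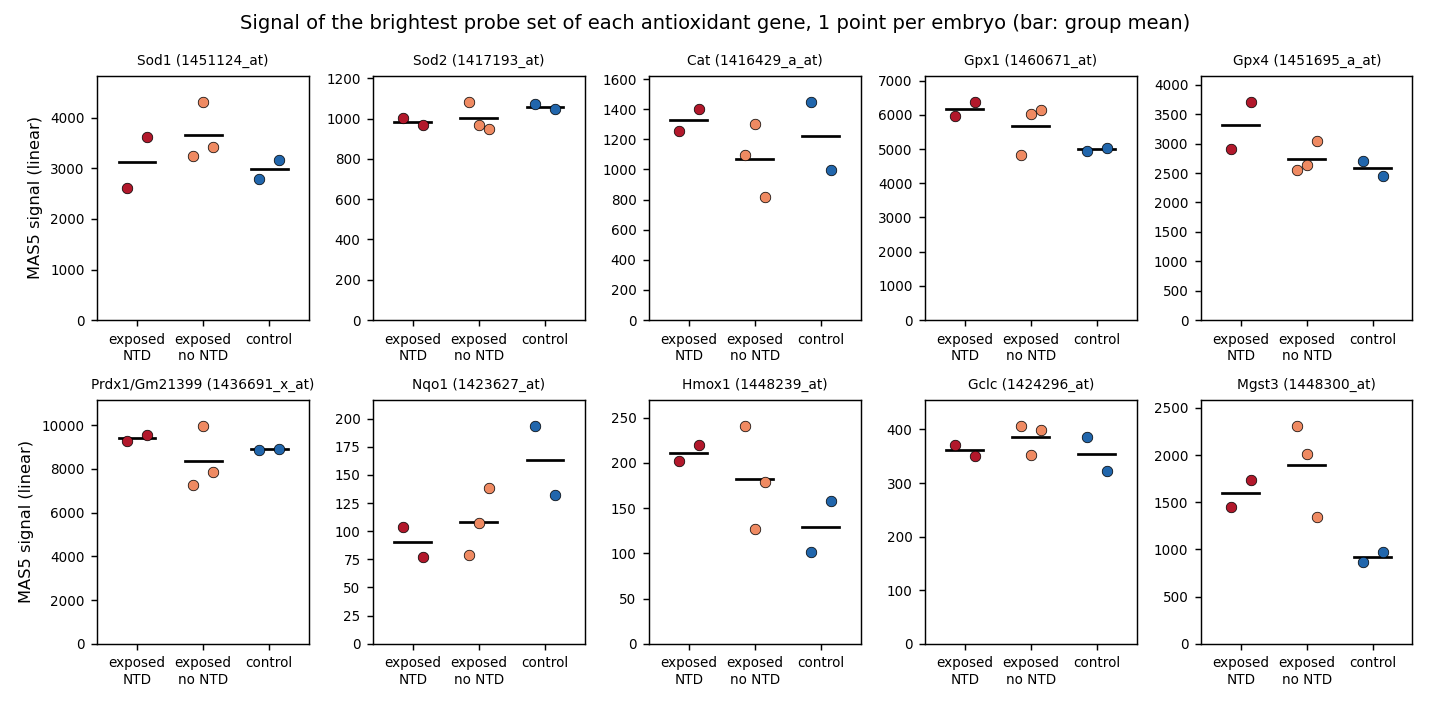
Linear MAS5 signal of the brightest probe set of each of the 10 genes in each embryo, with axes that start at 0; each point is 1 embryo (2 exposed with NTD, 3 exposed without NTD, 2 control) and each bar a group mean. The Mgst3 signals of the exposed embryos, from 1348 to 2311, all lie above those of the controls, 862 and 969, while the groups overlap for the other 9 genes.

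Sod1 and Sod2 encode the superoxide dismutases of the cytosol and of mitochondria. Here and in what follows, the signals of a group are given in the order of its embryo numbers. The brighter probe set of Sod1, 1451124_at, gave signals of 2619 and 3619 in the exposed embryos with NTD and 3257, 4316 and 3429 in those without NTD, against 2792 and 3168 in controls 1 and 2. Both the lowest and the highest embryo were exposed, and the log2 fold change was 0.19 (95% interval -0.17 to 0.56, adjusted p = 0.600 by limma). In the dimmer probe set of Sod1, 1435304_at, the order of the embryos was different. It had 542 and 303 in exposed embryos with NTD and 446, 283 and 281 in those without, against 286 and 299 in controls, with exposed embryo 1 with NTD highest here and lowest in the other probe set. Its log2 fold change was 0.29 (-0.28 to 0.85, adjusted p = 0.615).

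Sod2 was even between the embryos. Its brightest probe set, 1417193_at, had signals of 1004 and 967 in exposed embryos with NTD and 1083, 970.2 and 951 in those without NTD, against 1072 and 1047 in controls. Exposed embryo 1 without NTD was above both controls and the other 4 exposed embryos below them, with a log2 fold change of -0.09 (-0.35 to 0.17, adjusted p = 0.731). A further probe set, 1448610_a_at, ranged from 762 to 905 in exposed embryos and from 787 to 872 in controls, with a log2 fold change of 0.04 (-0.24 to 0.31, adjusted p = 0.917). The last, 1417194_at, had signals of 81.1 to 119 in exposed embryos and 101 to 134 in controls and was too dim to be tested. Changes of Sod2 by 1.5-fold in either direction lie outside the intervals of both tested probe sets.

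Cat encodes catalase, the peroxisomal enzyme that splits hydrogen peroxide into water and oxygen. Probe set 1416429_a_at had signals of 1258 and 1399 in exposed embryos with NTD and 1097, 1302 and 816 in those without NTD, against 1448 and 999 in controls. Only exposed embryo 3 without NTD lay outside the range of the controls, and the log2 fold change was -0.06 (-0.53 to 0.41, adjusted p = 0.920). Probe set 1416430_at had 808 and 994 in exposed embryos with NTD and 1181, 959 and 764 in those without, against 1072 and 851 in controls. Exposed embryo 3 without NTD was the lowest of the 7 in both probe sets, and control 1 was above control 2 in both. The second log2 fold change was -0.04 (-0.44 to 0.36, adjusted p = 0.939).

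Gpx1, the abundant glutathione peroxidase of the cytosol and mitochondria, was slightly higher in most exposed embryos. Its only probe set, 1460671_at, had signals of 5968 and 6375 in exposed embryos with NTD and 4836, 6015 and 6135 in those without NTD, against 4950 and 5041 in controls. Exposed embryo 1 without NTD lay below both controls and the other 4 exposed embryos above them. The mean was 5866 ± 597 in exposed embryos (SD, n = 5) and 4996 ± 64.1 in controls (SD, n = 2), and the log2 fold change of 0.23 (standard error 0.12, 95% interval -0.04 to 0.49) was not called (adjusted p = 0.375).

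Gpx4 encodes the glutathione peroxidase that reduces lipid peroxides within membranes and so protects cells from ferroptosis. Probe set 1451695_a_at had signals of 2911 and 3709 in exposed embryos with NTD and 2549.6, 2643 and 3043 in those without NTD, against 2712 and 2458 in controls. Exposed embryos 1 and 2 without NTD lay between the controls and the other 3 exposed embryos above them, and the log2 fold change was 0.19 (-0.14 to 0.52, adjusted p = 0.557). Probe set 1456193_x_at had 1813 and 1947 in exposed embryos with NTD and 1496, 1739.6 and 1533 in those without NTD, against 1611 and 1570.0 in controls. Both embryos with NTD were above the other 5 embryos, and the log2 fold change between exposed and control embryos was 0.09 (-0.20 to 0.39, adjusted p = 0.765).

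Prdx1 encodes a peroxiredoxin of the cytosol that reduces peroxides with thioredoxin. All 5 of its probe sets are annotated to both Prdx1 and Gm21399, a pseudogene, so that their signals are given for both together. The brightest, 1436691_x_at, had signals of 9275 and 9542 in exposed embryos with NTD and 7261, 9973 and 7834 in those without NTD, against 8883 and 8890.1 in controls. The controls were nearly equal and lay in the middle of the exposed embryos, with a log2 fold change of -0.03 (-0.32 to 0.26, adjusted p = 0.937). The steadiest probe set, 1416000_a_at, had 6901 and 6783 in exposed embryos with NTD and 7231, 6853 and 6229 in those without, against 6521 and 6561 in controls, with a log2 fold change of 0.05 (-0.15 to 0.26, adjusted p = 0.813). Exposed embryo 1 without NTD was highest there and lowest in the brightest probe set. It was also lowest in 1434731_x_at, with 3612 against 5431 to 8423 in the other exposed embryos and 6793 to 7234 in controls. The dimmer 1433866_x_at ranged from 1793 to 2531 in exposed embryos and from 1805 to 2109 in controls, and 1437014_x_at from 393 to 830.4 in exposed embryos and from 606 to 681 in controls, so that the groups overlapped in all 5. The log2 fold changes of the 5 probe sets ran from -0.26 to 0.05, and 3 of the 5 intervals stayed within 1.5-fold in either direction.

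**Figure D2:**
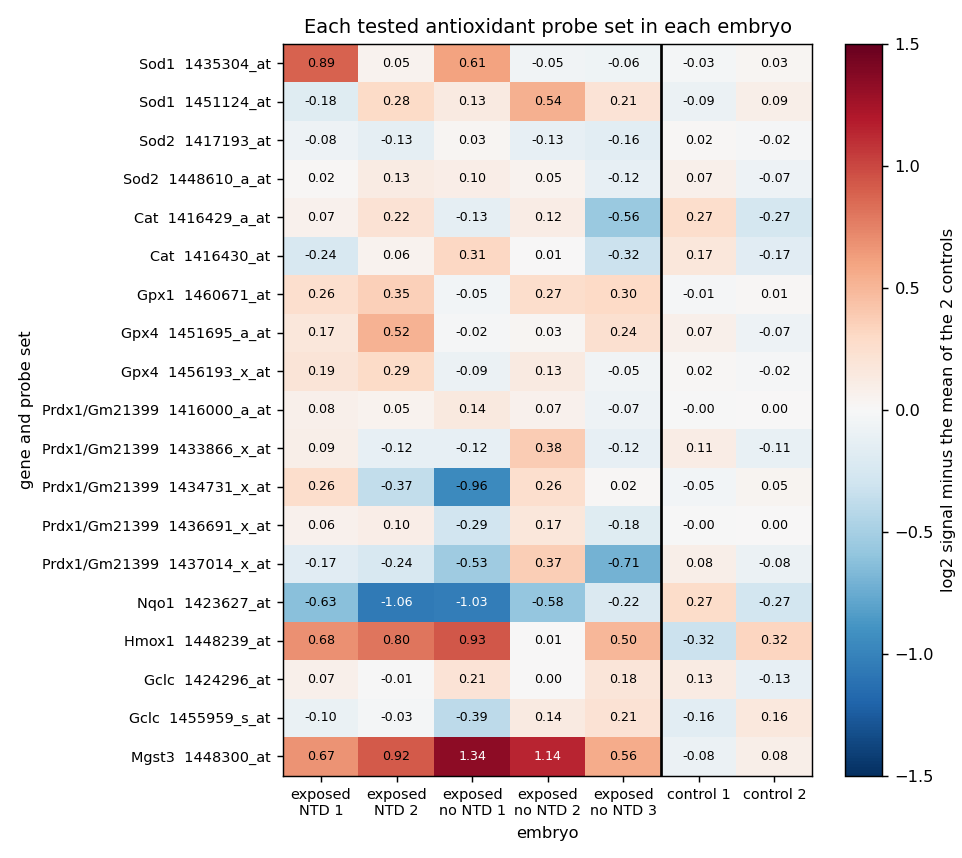
Log2 signal of each of the 19 tested probe sets (rows) in each of the 7 embryos (columns), minus the mean log2 signal of the 2 controls; red is above and blue below that mean. Of all rows, Mgst3 alone has every exposed embryo above both controls, and the 5 rows of Prdx1 and Gm21399 differ in sign within most exposed embryos, though not in embryo 2 without NTD.

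Gclc encodes the catalytic subunit of glutamate-cysteine ligase, which catalyses the first step of glutathione synthesis. Probe set 1424296_at had signals of 371 and 351 in exposed embryos with NTD and 407, 353 and 399 in those without NTD, against 386 and 323 in controls. The controls bracketed 3 of the exposed embryos, and the log2 fold change was 0.09 (-0.23 to 0.41, adjusted p = 0.792). Probe set 1455959_s_at ranged from 253 to 386 in exposed embryos and from 299 to 371 in controls, with a log2 fold change of -0.03 (-0.45 to 0.38, adjusted p = 0.948).

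Nqo1 and Hmox1, commonly used as readouts of Nrf2, had wide intervals and means that differed in opposite directions. Nqo1, a quinone reductase, was dim, with signals of 103 and 76.9 in exposed embryos with NTD and 78.4, 107 and 138 in those without NTD, against 194 and 133 in controls (probe set 1423627_at). Of the exposed embryos 4 lay below both controls and embryo 3 without NTD between them. The mean was 101 ± 25.1 in exposed embryos (SD, n = 5) and 163 ± 43.2 in controls (SD, n = 2), the log2 fold change was -0.70 (standard error 0.32, 95% interval -1.41 to 0.0046), and the adjusted p was 0.313. An exact permutation test gave p = 0.143 for Nqo1.

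Hmox1, the inducible heme oxygenase that breaks heme down to biliverdin, iron and carbon monoxide, had signals of 202 and 219.9 in exposed embryos with NTD and 241, 127 and 179 in those without NTD, against 101 and 158 in controls (probe set 1448239_at). Exposed embryo 2 without NTD lay between the controls and the other 4 exposed embryos lay above them. The log2 fold change was 0.58 (standard error 0.28, 95% interval -0.04 to 1.21), the adjusted p was 0.339, and the exact permutation p was 0.143. The intervals reached up to 2.31-fold for Hmox1 and down to 0.376-fold for Nqo1. Macrophages are rich in Hmox1, and their 9 markers summed to 1264 to 1585 in exposed embryos and 1473 to 1655 in controls. Of these markers 3 lay below the 40th percentile on all arrays, and the part of macrophages in the Hmox1 values was not tested.

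Mgst3, a microsomal glutathione transferase that also reduces lipid hydroperoxides, was the member that differed most. Probe set 1448300_at gave signals of 1452 and 1734 in the exposed embryos with NTD and 2311, 2011 and 1348 in those without NTD, against 862 and 969 in controls. Every exposed embryo was above both controls. The mean was 1771 ± 397 in exposed embryos (SD, n = 5) and 915 ± 75.4 in controls (SD, n = 2), a 1.94-fold ratio of mean signals. The log2 fold change was 0.93 (standard error 0.20, 95% interval 0.49 to 1.36), which corresponds to an interval of 1.40 to 2.57 for the fold. The adjusted p over all tested probe sets was 0.0800, so that Mgst3 was not called, and the exact permutation p was 0.048, the smallest that 2 against 5 embryos can give.

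The higher mean of Mgst3 in exposed embryos did not rest on a single embryo. The log2 fold change was 0.82 to 1.02 when each embryo in turn was left out. The adjusted p was 0.0649 to 0.133 without 1 exposed embryo, and 0.540 without control 1 and 0.380 without control 2, where the lone control left is assumed to vary like the exposed embryos. Exposed embryos without NTD alone differed from controls by 1.01 and exposed embryos with NTD by 0.80, with adjusted p = 0.0786 and 0.499. With array quality weights, which give less weight to arrays far from their group, Mgst3 was called (log2 fold change 0.88, adjusted p = 0.0191). That setting called 1 of 19 members and 491 of 14554 tested probe sets, against 0 and 25 without weights. With a term for embryos of high and low Xist the log2 fold change was 0.92 and the adjusted p 0.631, and this value rests on exposed embryo 2 with NTD alone, the 1 exposed embryo in the same Xist class as the controls. The highest Mgst3 signal was in exposed embryo 1 without NTD, which had also the highest sums of red blood cell and of yolk sac and liver markers. Its red blood cell sum rested mainly on the globins Hba-x, Hbb-bh1 and Hbb-y, with signals of 31058, 27515 and 22334. For Klf1, Gata1, Epor and Slc4a1 it was the lowest of the exposed embryos, and for the other red blood cell markers it lay between them. All 11 tested red blood cell markers had a positive log2 fold change in their brightest probe set, with a median of 0.60 and 0 called. Their part in the result was not tested. Other probe sets of these markers were not read, and the paper reports Tfrc, here positive, as lower in exposed embryos on the arrays and unchanged by quantitative PCR. With exposed embryo 1 without NTD left out, Mgst3 had a log2 fold change of 0.82 (adjusted p = 0.0662). The other Mgst3 probe set, 1450563_at, gave signals of 8.96 and 54.5 in exposed embryos with NTD and 8.71, 9.38 and 14.2 in those without NTD, against 9.45 and 8.42 in controls, far below the 40th percentile on every array, and was not tested.

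**Figure D3:**
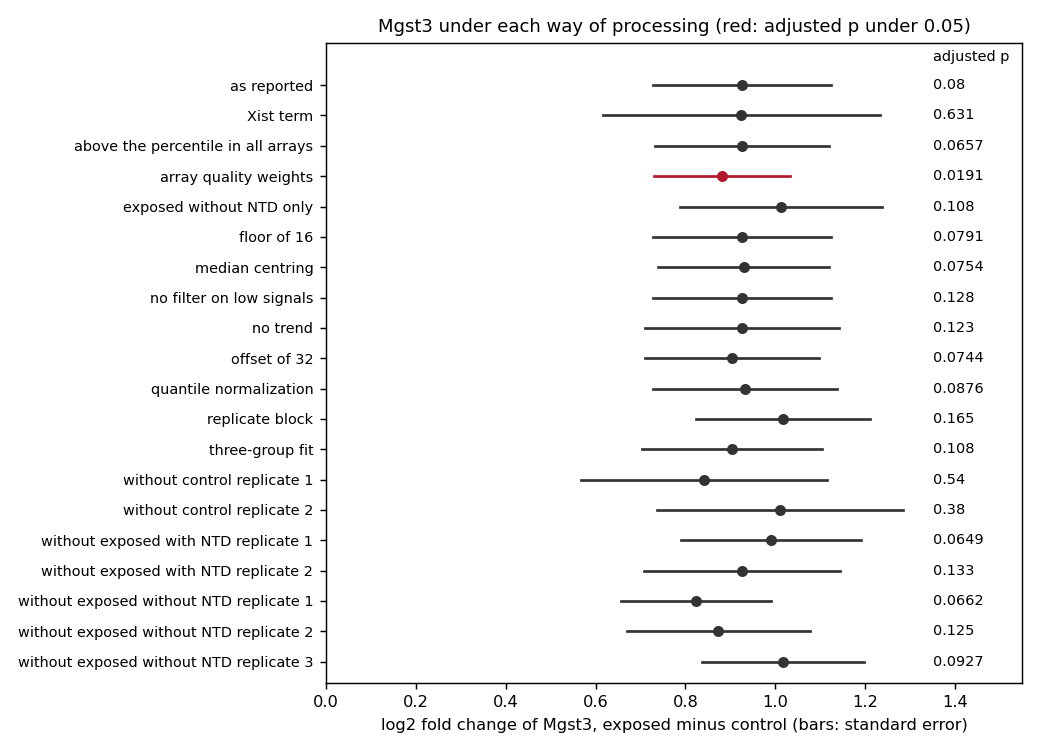
Log2 fold change of Mgst3 (exposed minus control, horizontal axis) as reported and under 19 other ways of processing the same signals (rows), with bars of 1 standard error and the adjusted p at the right. The value stays between 0.82 and 1.02, and the adjusted p is under 0.05 with array quality weights only. With these weights 491 of all tested probe sets were called, against 25 as reported.

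The probe sets whose signal was most like that of Mgst3 over the 7 embryos were those of Ndufv3, a subunit of complex I of the respiratory chain, Necab3, Tigd5, Nlrp6 and Hs1bp3. Pearson's r of the log2 signals with Mgst3 was 0.996, 0.996, 0.985, 0.983 and 0.981 in this order, and 0.996, 0.985, 0.951, 0.961 and 0.936 over the 5 exposed embryos alone. These values describe the same 7 arrays and the genes were picked out of all those tested for a high r. Ndufv3 had signals of 1261 and 1360 in exposed embryos with NTD and 1607, 1482 and 1172 in those without NTD, against 854 and 927 in controls. It thus ordered the 7 embryos as Mgst3 did. None of the 5 was called, with adjusted p = 0.0974 to 0.188.

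**Figure D4:**
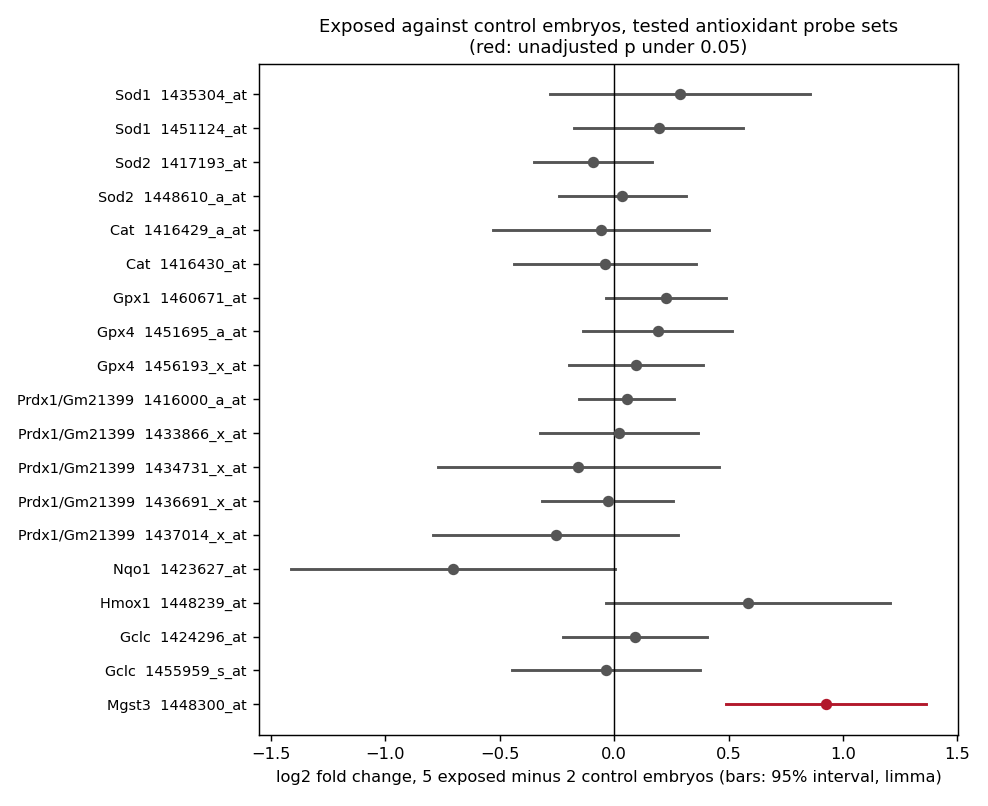
Log2 fold change between the 5 exposed and the 2 control embryos (horizontal axis; points) with its 95% interval from limma (bars) for the 19 tested probe sets (rows). The interval of Mgst3, 0.49 to 1.36, lies wholly above 0, that of Nqo1 reaches to 0, and the intervals of Sod2, Gpx1 and Gpx4 are narrow around small values.

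Exposed embryos with NTD were next compared with exposed embryos without NTD. No member was called by limma, and 0.0% of all tested probe sets were called. At an unadjusted p under 0.05 the counts were 0 of 19 members and 440 of all tested, or 3.02%. The log2 fold changes of the members ran from -0.24 for Sod1 1451124_at to 0.33 for Cat 1416429_a_at, and the lowest adjusted p was 0.999. The other tested probe sets of these genes had the opposite sign, 0.30 for Sod1 1435304_at and -0.09 for Cat 1416430_at. In Mgst3 the difference was -0.22 (95% interval -0.70 to 0.27). The groups did not overlap for 1 of 19 members, or 5.26%, the 1456193_x_at probe set of Gpx4 described above, where 7.58% of all tested probe sets were higher in both embryos with NTD. Its log2 fold change was 0.24 (-0.05 to 0.54), and the other Gpx4 probe set had 0.26 (-0.07 to 0.60). Members lower in both embryos with NTD than in all those without numbered 0, against 8.49% of all tested.

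Other genes of the same pathways were read from 12 lists, in which 80 genes were tested through a probe set with 1 symbol, 71 of them not among the 10 genes. None of the 71 was called, and 8 or 11.3% had an unadjusted p under 0.05 (6 higher and 2 lower), against 16.2% of all tested probe sets. All exposed embryos lay above both controls for 11 or 15.5%, against 11.4% of all tested, and below both for 3 or 4.23%, against 13.4%. Of 43 further tested probe sets of these genes 0 were called and 11 or 25.6% had an unadjusted p under 0.05, so that the share depended on which probe sets were counted. The median log2 fold change of the 71 was 0.06, against 0.00 over all tested probe sets.

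Among the enzymes that remove peroxides, 3 of 3 further peroxiredoxins had a positive log2 fold change in their brightest probe set and 0 were called. Prdx3, the mitochondrial one, had 0.25 (adjusted p = 0.355), with 974 to 1192 in exposed embryos and 895 to 957 in controls. Prdx2, abundant in red blood cells, had 0.12 (adjusted p = 0.634) and Prdx4, of the endoplasmic reticulum, 0.12 (adjusted p = 0.630), with groups that overlapped. The other tested probe set of Prdx2 had -0.03 (adjusted p = 0.968), and those of Prdx4 had -0.33 and 0.38 (adjusted p = 0.684 and 0.504). Gpx3, the secreted glutathione peroxidase of plasma, had signals of 1028 and 1105 in exposed embryos with NTD and 2371, 1081 and 1365 in those without NTD, against 730.5 and 806 in controls. All exposed embryos were above both controls, the highest being embryo 1 without NTD, and the log2 fold change of 0.78 was not called (adjusted p = 0.212). Gpx7 and Gpx8, peroxidases of the endoplasmic reticulum, had -0.24 and -0.26 (adjusted p = 0.630 and 0.469).

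The thioredoxin and glutaredoxin list, with 9 tested genes, had 5 positive and 4 negative log2 fold changes. Txnip, which binds and inhibits thioredoxin and responds to glucose, had signals of 774 and 923 in exposed embryos with NTD and 1054, 635 and 744 in those without NTD, against 617 and 568 in controls. Every exposed embryo was above both controls, but the log2 fold change of 0.46 was not called (adjusted p = 0.264), and its other tested probe set had -0.09. Txnrd1, the cytosolic thioredoxin reductase, had -0.28 in its brightest probe set (adjusted p = 0.474) and -1.19 and -1.16 in the others (adjusted p = 0.470 and 0.314). Glrx2, a glutaredoxin of mitochondria, had 511 to 596 in exposed embryos and 614 to 673 in controls, with -0.24 (adjusted p = 0.383) and -0.08 and -0.20 in its other tested probe sets. Thioredoxin itself, Txn1, had 0.01 (adjusted p = 0.990).

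In the synthesis and recycling of glutathione 0 of 6 tested genes were called. Gclm, the modifier subunit that pairs with Gclc, had a log2 fold change of 0.14, Gss, glutathione synthetase, 0.20 and Gsr, glutathione reductase, 0.01. Chac1, which degrades glutathione, had 0.93 through a single embryo, with a signal of 1339 in exposed embryo 1 without NTD, 154 to 204 in the other exposed embryos and 114 to 168 in controls. Ggct, which handles gamma-glutamyl peptides, had -0.28 (adjusted p = 0.667). Of 14 tested glutathione transferases 11 had a positive and 3 a negative log2 fold change, and 0 were called. Gstt1 had 0.51 (adjusted p = 0.265), with 180 to 261 in exposed embryos and 135 to 146 in controls, and Gstk1 had -0.47 (adjusted p = 0.211), with 256 to 355 in exposed embryos and 369 to 418 in controls. Gstm1 had 0.35 (adjusted p = 0.365) in its brightest probe set, with 499 to 803 in exposed embryos and 451 to 464 in controls, so that all exposed embryos were above both. Its other tested probe sets had 0.91, 0.42 and 0.35 (adjusted p = 0.122, 0.437 and 0.631), and since the Gstm genes are similar in sequence the gene behind these signals is uncertain. Mgst1, the relative of Mgst3, had 0.00 (adjusted p = 0.996).

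Of 10 tested regulators of the Nrf2 pathway 8 had a positive and 2 a negative log2 fold change, and 0 were called. Nfe2l2 itself had a log2 fold change of 0.05, Keap1 0.11 and Bach1, a repressor at the same elements, 0.06, and none was called (adjusted p = 0.776 to 0.886). Cul3, the scaffold of the ligase that uses Keap1, had signals of 882 and 1023 in exposed embryos with NTD and 798, 855 and 889 in those without NTD, against 1191 and 1057 in controls. All exposed embryos were below both controls, with a log2 fold change of -0.34 (adjusted p = 0.247). Its other tested probe sets had -0.51 and -0.80 (adjusted p = 0.243 and 0.234), so that all 3 had a negative value and none was called. Nfe2l1, a relative of Nrf2, had 0.29 (adjusted p = 0.370) and Mafk, a partner of Nrf2 on DNA, 0.36 (adjusted p = 0.414). Of 10 tested targets outside the glutathione genes, Nqo1 and Hmox1 included, 6 were positive and 4 negative. Srxn1 had 0.20 in its brightest probe set and -0.15 and 0.06 in the others. Me1 had 0.01 and Sqstm1 -0.03. Fth1, the heavy chain of ferritin, had 10141 to 12254 in exposed embryos and 8157 to 8836 in controls, with 0.34 (adjusted p = 0.157). Abcc1, an exporter of glutathione conjugates, had 307 to 348 in exposed embryos and 297 to 303 in controls, with 0.16 (adjusted p = 0.588). Its other tested probe set had -0.006 (adjusted p = 0.993).

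Heme breakdown held the lowest p of the lists. Blvrb, a biliverdin reductase that is abundant in red blood cells, had signals of 731 and 744 in exposed embryos with NTD and 647, 944 and 502 in those without NTD, against 347 and 327 in controls. All exposed embryos were above both controls, and the log2 fold change of 1.05 (standard error 0.21) was not called (adjusted p = 0.0635). Hmox2, the constitutive heme oxygenase, had 0.07 and Blvra -0.09. The summed red blood cell markers were higher in all exposed embryos as well, and their part in the values of Blvrb, Fth1 and Hmox1 was not tested.

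Of the genes that supply NADPH 9 were tested, with 3 positive and 6 negative log2 fold changes and a median of -0.05. Pgd, of the pentose phosphate pathway, had 0.25 (adjusted p = 0.353) in its brightest probe set and -0.09, 0.03 and 0.19 in the others. Pgls, of the same pathway, had -0.27 (adjusted p = 0.346). Idh1, the cytosolic isocitrate dehydrogenase, had -0.21 (adjusted p = 0.668) in its brightest probe set and -0.65 (adjusted p = 0.171) in the other. Of 12 sources of superoxide 7 had a probe set of their own, and only Cyba and Ncf4, subunits of NADPH oxidases, were bright enough to be tested, with 0.47 and 0.28 (adjusted p = 0.384 and 0.535). Gpx1 and Gpx4 contain selenocysteine, and of 9 tested genes of selenoproteins and their synthesis 6 were positive and 3 negative. Selenow, a small selenoprotein, had 5566 to 6686 in exposed embryos and 4245 to 5099 in controls, with 0.40 (adjusted p = 0.139), and Sephs2, which makes the selenium donor, had 0.20 (adjusted p = 0.603). Eefsec, the elongation factor for selenocysteine, had 0.30 (adjusted p = 0.504).

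**Figure D5:**
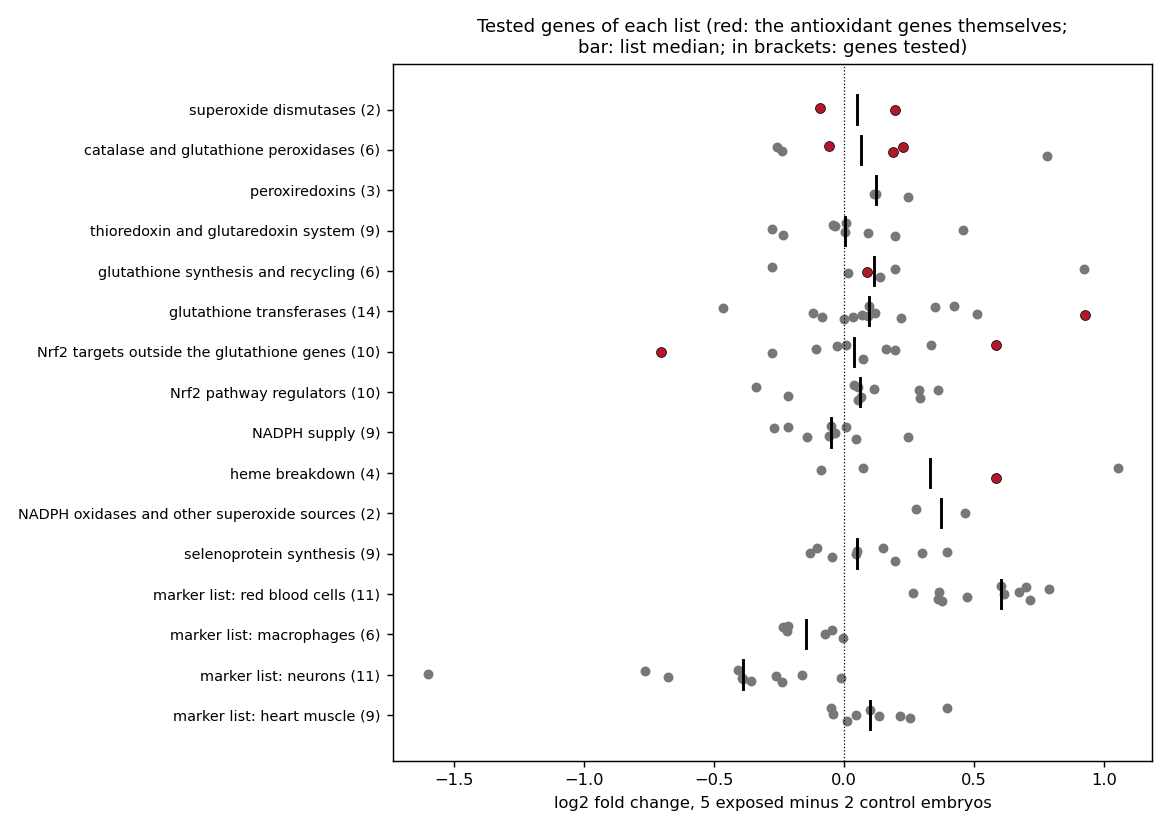
Log2 fold change (exposed minus control, horizontal axis) of every tested gene of 12 pathway lists and 4 marker lists (rows); each point is the brightest probe set of a gene, red points are the antioxidant genes themselves, bars are list medians and numbers in brackets count the tested genes. All 11 red blood cell markers lie above 0 and all 11 neuron markers below 0, and the medians of the 12 pathway lists run from -0.05 for NADPH supply to 0.37 for superoxide sources, of which 2 genes were tested.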

How the data were processed

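Whole-embryo RNA was labelled with biotin and hybridized to 1 array per embryo. The deposited values are linear intensities, which the authors computed with MAS5 (with default parameters) and scaled per array; no version of MAS5 is given in the sources used here. Detection calls did not enter the work, and the arrays were not normalized further. Signals under 1 were set to 1 before log2. Of 22690 probe sets, 64 array controls were left out, and the rest were tested where at least 2 of 7 arrays reached the 40th percentile. Array annotation gave 1 symbol to 20393 probe sets, several to 691 and none to 1606.

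With limma 3.58.1 in R 4.3.3, all exposed embryos were set against the controls, and embryos with against those without NTD in a fit of 3 groups (moderated, with a trend of the spread). Adjusted p is after Benjamini-Hochberg over all tested probe sets, called under 0.05. Single values were compared with two-sided exact permutation tests. Where 1 probe set stands for a gene it is the one of highest mean log2 signal. From each list up to 3 genes of smallest p, and the 5 probe sets most like Mgst3, were to be named; other list genes, chosen after their values were seen, are Txn1, Gclm, Gsr, Mgst1, Nfe2l2, Keap1, Bach1, Srxn1, Me1 and Sqstm1. The members and lists were chosen with earlier results of these data known. The test was tried on simulated data of the same group sizes. Alternatives were quantile normalization, median centring, another floor, offset or filter, no trend, array weights and a replicate block. Others were an Xist term, other groupings, a Welch t-test and each embryo left out. The number of arrays limits the precision. Tables and figures were made in Python 3.11.15 with SciPy 1.17.1, pandas 2.3.3, Matplotlib 3.10.9 and NumPy 2.4.6.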

Additional observations from a re-analysis of the deposited data

Results flagged for a closer look

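In 2 of the 21 probe sets 1 of the 5 exposed embryos lay far from the others, as about 1 in 20 groups would by chance. The Gpx1 probe set 1460671_at had a signal of 4836 in exposed embryo 1 without NTD and of 5968 to 6375 in the other 4 exposed embryos. The untested Mgst3 probe set 1450563_at had a signal of 54.5 in exposed embryo 2 with NTD and of 8.71 to 14.2 in the other 4. That probe set lay below the 40th percentile on all arrays.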

How the results depend on the processing

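Of 359 recomputed log2 fold changes of the members, 333 kept their direction and their side of the threshold and 25 changed sign, all of these with an adjusted p of 0.835 or more. The members called numbered 0, except with array quality weights, where 1 was called (Mgst3). At an unadjusted p under 0.05, members other than Mgst3 passed in some settings. With array quality weights 4 members passed, Gpx1, Nqo1, Hmox1 and Mgst3, against 3189 of all tested probe sets. Nqo1 passed also without a trend, without the filter on low signals and with an offset of 32. The 25 probe sets called over the whole array became 491 with array quality weights and 45 with an offset of 32. They became 14 in the 3-group fit, 10 without a trend and 8 without the filter on low signals. The Welch t-test called 0 and passed 2651 unadjusted, Gpx1 and Mgst3 among the members. It was run without the paper's detection and fold-change filters, so it does not repeat the paper's selection. With an Xist term 0 were called. When each embryo was left out the count was 0 to 58, with 1 without control 1, 0 without control 2, 58 without exposed embryo 1 with NTD, 10 without exposed embryo 2 with NTD, and 40 without embryo 1 and 6 without embryo 3 of those without NTD. Between embryos with and without NTD, 0 to 2 were called, 2 when exposed embryo 1 with NTD was left out. Deviations of same-numbered embryos from their group means had r of -0.25 to 0.03 over 6 pairs. In groups of 2 these deviations mirror each other, so the pairs are not independent and cannot settle whether the numbers pair the embryos. With a replicate block 0 were called, and Cat had log2 fold changes of 0.0666 (1416429_a_at) and 0.0323 (1416430_at) and Prdx1 of 0.00988 (1436691_x_at), all with their sign changed, and Mgst3 of 1.02 (adjusted p = 0.165).

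Other signs turned as follows. With the Xist term, where each value is that of exposed embryo 2 with NTD alone against the controls, Cat had 0.22 (1416429_a_at) and 0.0581 (1416430_at), Prdx1 -0.12 (1433866_x_at) and 0.10 (1436691_x_at), and Gclc 1424296_at -0.0079. With array weights Cat 1416429_a_at had 0.00564 and Prdx1 1436691_x_at 0.0246. With exposed embryos without NTD only, Gpx4 1456193_x_at had -0.00399. Over the fits with each embryo left out in turn, log2 fold changes that turned ran from -0.038 to 0.11 for Sod2 1448610_a_at, -0.33 to 0.21 for Cat 1416429_a_at, -0.20 to 0.13 for Cat 1416430_at, -0.0904 to 0.13 for Prdx1 1433866_x_at, -0.26 to 0.0431 for Prdx1 1434731_x_at, -0.0772 to 0.0373 for Prdx1 1436691_x_at, -0.0381 to 0.22 for Gclc 1424296_at and -0.19 to 0.12 for Gclc 1455959_s_at. The cause was not tested. The Welch t-test was run for counts of calls only. Nqo1 and Hmox1 were not tested under the filter that asks for all 7 arrays.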
